A study of Homo sapiens with 4 samples.

Results

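Aminoacyl-tRNA synthetases join each amino acid to its transfer RNA, the step that gives translation its meaning. Human cells use a set of them in the cytosol and a second, nuclear-encoded set in mitochondria, where most mitochondrial enzymes have a gene of their own with a symbol ending in 2. KARS1 and GARS1 make both forms from a single gene. Several cytosolic enzymes sit in a large complex held together by the scaffold proteins AIMP1, AIMP2 and EEF1E1, the others work outside it, and all fall into structurally unrelated catalytic folds called class I and class II. When amino acids run short, the kinase GCN2 (EIF2AK4) raises translation of the transcription factor ATF4, whose known targets include genes of amino acid synthesis and transport and many cytosolic synthetases.

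The genes described here are the cytosolic and mitochondrial synthetases and these scaffolds, 38 genes in all. They were taken as the probe sets whose platform annotation names 1 of them alone. That gave 33 genes with 70 probe sets, out of 19775 genes and 41091 such probe sets on the array: 17 of 19 cytosolic enzymes, 15 of 16 mitochondrial enzymes and 1 of 3 scaffolds. No probe set named MARS1, QARS1, TARS2, AIMP2 or EEF1E1 alone, so these 5 have no value here.

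The cells were M14, an established human melanoma line, stably carrying either the empty eGFP vector pIRES2 or the same vector with FLAG-tagged ARHGAP8, a coding region that lacks exon 5. All carried eGFP, had been sorted for it and were kept in G418. Each line was grown for 4 days in serum-containing medium, either on collagen-coated plastic (2D) or embedded in growth factor-reduced Matrigel (3D). Each of the 4 combinations was measured on 1 Affymetrix HG-U133 Plus 2.0 array, so each group has n = 1, no value has a replicate error, and the number of arrays limits the precision.

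Values are signal intensities in arbitrary units, scaled to a common trimmed mean of 150.0. Signals under 72.3, the median of all, were set to that floor before log2 ratios were taken. Each gene is represented by its brightest probe set. A limma model with 1 term for plasmid and 1 for culture was fitted over all 13239 genes above the floor on at least 2 arrays, and a gene passed when its Benjamini-Hochberg adjusted p was under 0.05. The model takes the pair of lines as repeats of the culture change and the pair of cultures as repeats of the plasmid change. Its standard errors (SE) are moderated, drawn mostly from other genes of like signal, and leave out the spread between separately made lines or cultures. Of the 33 genes, 32 were tested, 31 of them above the floor on all 4 arrays. PARS2, the mitochondrial prolyl enzyme, lay under the floor on all 4, at 22.9 to 53.8.

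Some features of the arrays stand beside every result. The line labelled ARHGAP8 in 3D had a median 18S ribosomal RNA signal of 626, against 27.7 to 49.4 on the other 3 arrays. ACTB, read as a measure of RNA integrity, had a 3' to 5' ratio of 1.10 and 1.05 on the plastic arrays, and of 1.23 and 1.32 on the gel arrays. The same ratio of GAPDH was 0.874 and 0.899 on plastic and 0.901 and 0.925 in gel. The part of these differences in the results was not tested. Of 8 melanocyte markers 7 were named and 6 were above the floor on all arrays, PMEL being under it; their summed signal ran from 5169 to 8774. None of 5 epithelial markers rose above the floor on any array, nor did PTPRC, CD14 or CD3E of leukocytes, and CSF1R reached at most 80.7. Of 7 fibroblast markers 3 were above it, COL1A1, COL1A2 and DCN, at up to 253, while COL3A1, LUM, PDGFRA and PDGFRB were under it. Of 4 endothelial markers PECAM1 alone was above it, at up to 343, while CDH5, TEK and VWF were under it. Every probe set of ARHGAP8 also names the readthrough gene PRR5-ARHGAP8, so no gene-level value was taken and the labels were not checked by it.

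Promoter sequence gives a further feature of these genes, though the core searched was chosen with earlier results of these data known. ATF4 binds with C/EBP partners to a composite element with the core TGATGNAA. The RefSeq promoter table (GRCh38.p14) held windows for 33 of the 38 genes, each from 250 bases before to 50 bases after a start. The core was searched on both strands, as the only motif searched. It was found for 7 of 16 cytosolic enzymes with a window (43.8%), 1 of 14 mitochondrial enzymes (7.14%) and 0 of 3 scaffolds. It was found for 1217 of all 27305 genes with a window (4.46%), or 3.62% of 35116 windows of the same length, and for 5 of 15 genes of amino acid synthesis and transport (33.3%). LARS1, VARS1, YARS1, AARS2 and VARS2 had no window. The stretches below surround the core in 6 measured cytosolic genes, in ASNS, the asparagine synthetase gene and a textbook ATF4 target, and in YARS2, the only mitochondrial enzyme with a match. Capitals mark the core on either strand, and each line reads 5' to 3' on the gene's own strand. The GARS1 and IARS1 stretches end at the start site, and those of CARS1, NARS1 and TARS1 end at the core.
AARS1, chr16:70289656-70289723, minus strand: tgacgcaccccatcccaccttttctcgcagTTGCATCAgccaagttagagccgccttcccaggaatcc
CARS1, chr11:3057418-3057435, minus strand: ggggcggcggTTGCATCA
GARS1, chr7:30594815-30594877, plus strand: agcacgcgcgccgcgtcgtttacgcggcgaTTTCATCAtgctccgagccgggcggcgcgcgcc
IARS1, chr9:92293698-92293740, minus strand: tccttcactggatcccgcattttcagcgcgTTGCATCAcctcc
NARS1, chr18:57621815-57621832, minus strand: ctacgctctcTGATGCAA
TARS1, chr5:33440957-33440974, plus strand: cgcctttcgaTTGCATCA
ASNS, chr7:97872439-97872506, minus strand: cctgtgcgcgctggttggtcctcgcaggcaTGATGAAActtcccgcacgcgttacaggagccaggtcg
YARS2, chr12:32756057-32756124, minus strand: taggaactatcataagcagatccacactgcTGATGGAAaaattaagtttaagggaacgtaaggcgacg

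Read on the strand where the core matches, AARS1, CARS1, IARS1, NARS1 and TARS1 carry TGATGCAA, GARS1 and ASNS carry TGATGAAA, and YARS2 carries TGATGGAA. The first base of the core lay 187 bases upstream of the start in AARS1, 33 in GARS1, 13 in IARS1 and 2 in CARS1, and 2 bases downstream of it in TARS1 and 14 in NARS1. The 7th cytosolic match was in MARS1, which has no probe set of its own. A match describes letters in a window and does not show binding, and a window without a match says nothing of ATF4.

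The culture comparison set gel against plastic. FARSB fell 3.94-fold, LARS1 rose 1.67-fold and HARS1 fell 1.45-fold, while the other 29 tested members did not pass. That is 3 of 32 members, where 6.99% of all tested genes passed; 1 was called higher, against 2.83% of all, and 2 lower, against 4.15%. The median size of the change, regardless of sign, was 0.23 log2 in the members and 0.23 over all tested genes, and 28 of 32 members changed by under 0.5 log2, as did 84% of all.

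**Figure D1:**
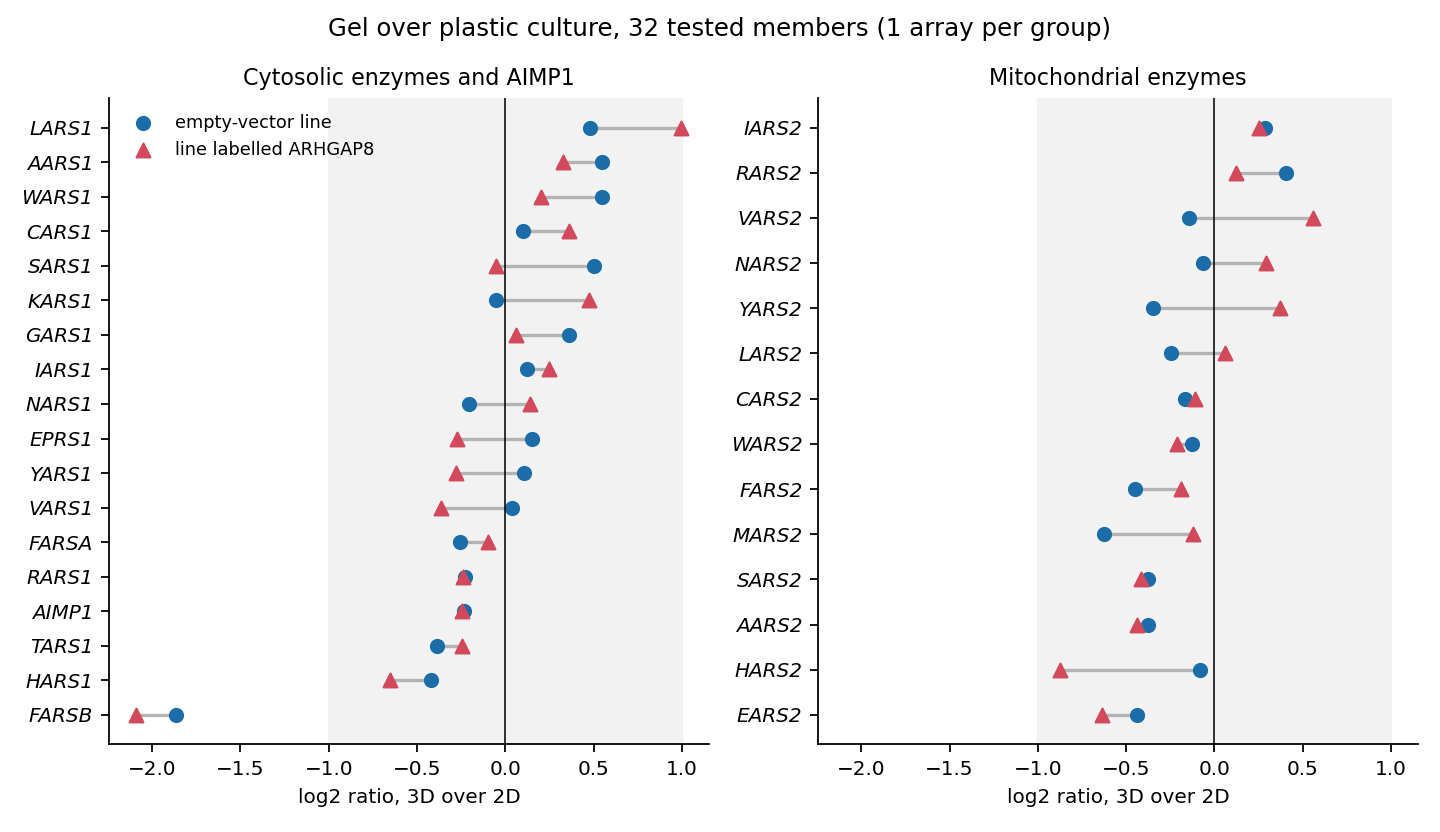
Log2 ratios of 3D over 2D signal, floored at 72.3, for the 32 tested members, in the empty-vector line (circles) and the ARHGAP8 line (triangles), 1 array per group; the grey band spans a 2-fold difference either way. FARSB alone lies outside the band, at -1.86 and -2.09, and the other members fall between -0.87 and 0.99.

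FARSB encodes the beta subunit of cytosolic phenylalanyl-tRNA synthetase, the subunit that carries the editing domain. On plastic it read 536 with the empty vector and 622 in the line labelled ARHGAP8. In gel it read 147 and 146, and values below keep this order, empty vector first. Both gel values lay well under both plastic values, and the lines were alike within each culture. The change was -1.98 ± 0.20 log2 (moderated SE, 4 arrays; limma, Benjamini-Hochberg adjusted p 3.50e-06), with ratios of -1.86 and -2.09. With signals floored it was the only member at least 2-fold apart between cultures, and was so in both lines; 3.02% of tested genes were with the empty vector and 3.77% in the other line.

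This fall rests on a single probe set. The second FARSB probe set, of a type that can cross-hybridise, read 78.9 and 83.9 in 2D and 57.2 and 140 in 3D, near the floor and with no common direction. The third read 51.0 to 74.9, at or under the floor. With the mean of its probe sets FARSB had -0.57 and missed the threshold (limma adjusted p 0.138, in a range from 5.09e-09 to 0.475 over the alternatives). FARSA encodes the catalytic alpha subunit of the same enzyme, which needs both subunits. It read 1163 and 1115 on plastic against 974 and 1041 in gel, a difference of -0.18 ± 0.16 that did not pass. Its other probe set, at 1079 and 777 in 2D and 721 and 626 in 3D, had -0.45.

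LARS1 encodes the cytosolic leucyl enzyme, a member of the multisynthetase complex that also acts as a leucine sensor for mTORC1. It read 980 and 1013 on plastic against 1369 and 2017 in gel. Both gel values were higher, with the line labelled ARHGAP8 the higher of these. The change was 0.74 ± 0.17 log2 (moderated SE, 4 arrays; limma, Benjamini-Hochberg adjusted p 0.00904), from ratios of 0.48 and 0.99. Without the ARHGAP8 3D array, which carries the raised 18S signal, 0.48 is the value that remains. Its 3 other probe sets had changes of 0.41, 0.08 and -0.28, and the mean of all 4 probe sets gave 0.24, short of the threshold (adjusted p 0.405 in limma, in a range from 0.00328 to 0.572 over the alternatives).

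**Figure D2:**
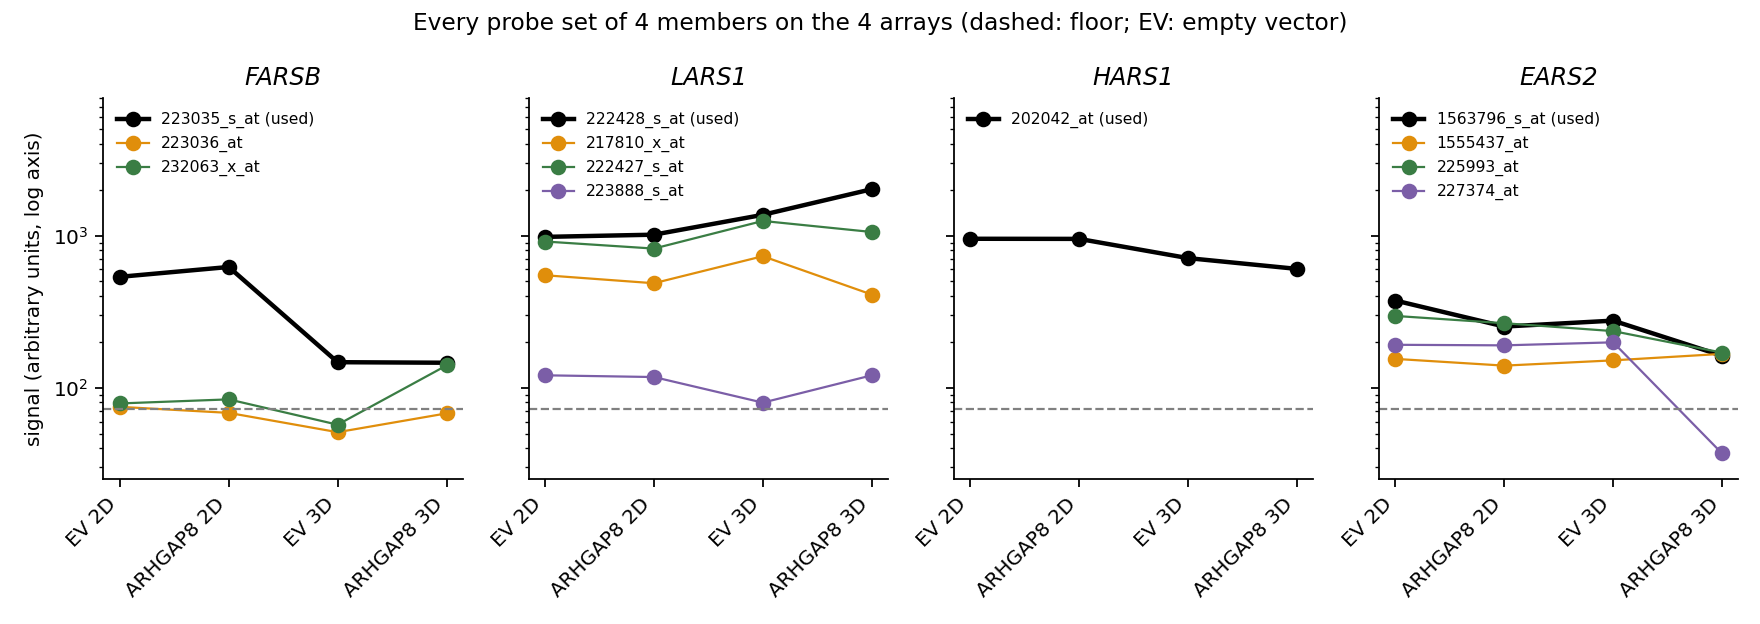
Signal of every probe set of FARSB, LARS1, HARS1 and EARS2 on the 4 arrays, on a log axis; the thick black line is the probe set that represents the gene and the dashed line is the floor of 72.3. The FARSB probe set drops from 536 and 622 to 147 and 146, while its other probe sets lie near or under the floor on most arrays.

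HARS1 encodes the cytosolic histidyl enzyme. Its only probe set read 953 and 951 in 2D and 711 and 604 in 3D, with both gel values lower. The change of -0.54 ± 0.16 log2 (moderated SE, 4 arrays) had a Benjamini-Hochberg adjusted p of 0.0463 in limma, just inside the threshold. It passed under 1 of 10 alternatives, with adjusted p from 0.0353 to 0.490 in limma over them. HARS2, the mitochondrial histidyl enzyme, read 227 and 251 in 2D and 215 and 137 in 3D. It too was lower in both lines, by -0.08 and -0.87, and missed the threshold (limma adjusted p 0.287).

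HARS1 and HARS2 stand head to head, with start sites 85 bases apart in the RefSeq table. The stretch between these starts, which lies just upstream of both genes, is printed because 1 sequence serves a cytosolic and a mitochondrial enzyme; it held 0 matches to the ATF4 core.
HARS1 and HARS2, chr5:140691371-140691454, plus strand: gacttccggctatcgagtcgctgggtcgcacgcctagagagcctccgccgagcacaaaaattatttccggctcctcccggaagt
For 12 of 33 members with a window, it overlapped that of a gene on the opposite strand, a share not counted over all genes. Besides this pair they were AIMP1 with TBCK, AIMP2 with PMS2, EARS2 with UBFD1, FARS2 with LYRM4, KARS1 with TERF2IP, RARS2 with ORC3, SARS2 with MRPS12, WARS1 with WDR25, FARSB with LOC124907985 and TARS1 with TARS1-DT.

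Among the other cytosolic enzymes, AARS1 and WARS1 were higher in gel in both lines without passing. AARS1, the alanyl enzyme, read 465 and 420 in 2D and 680 and 528 in 3D, a difference of 0.44 ± 0.17 (adjusted p 0.137 in limma). WARS1, the tryptophanyl enzyme, also known for its induction by interferon, read 464 and 573 in 2D and 676 and 660 in 3D, a difference of 0.37 ± 0.17 (adjusted p 0.206 in limma). Its other probe set had 0.41.

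CARS1, GARS1 and IARS1, the cysteinyl, glycyl and isoleucyl enzymes, were also higher in gel on both arrays, by 0.23, 0.21 and 0.19 on average. Signals of CARS1 were 1668 and 1652 in 2D and 1788 and 2124 in 3D. Those of GARS1 were 1139 and 1271 in 2D and 1461 and 1328 in 3D. The SE was 0.16 for each of these genes, and none passed.

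On the other side, TARS1 and RARS1, the threonyl and arginyl enzymes, were lower in gel in both lines by -0.31 ± 0.16 and -0.23 ± 0.16, without passing. TARS1 read 1253 and 1204 in 2D and 959 and 1018 in 3D, although its dimmer probe set, near the floor, had 0.21. The lines went opposite ways for SARS1, KARS1, NARS1, EPRS1, YARS1 and VARS1, whose averages ran from -0.16 (VARS1) to 0.22 (SARS1). SARS1, the seryl enzyme, was 0.50 higher in gel with the empty vector and at -0.05 in the other line. KARS1, the lysyl enzyme of both compartments, had -0.05 and 0.48, and its other probe set averaged -0.27.

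In all, both gel signals lay above both plastic signals for 6 of 17 cytosolic enzymes and below them for 5. For the 14 tested mitochondrial enzymes these counts were 2 and 6. Over all tested genes the shares were 27.5% above and 22.7% below. The median change was -0.03 for cytosolic and -0.15 for mitochondrial enzymes, beside 0.03 over all tested genes. By line, the cytosolic median was 0.10 with the empty vector and -0.05 in the other line, and the mitochondrial median was -0.21 and -0.11. The sign of the cytosolic median was not stable, as it was also 0.0046 after cyclic loess normalization. The mitochondrial median was under 0 with quantile and cyclic loess normalization too. The contrast between compartments was not tested. Both signs held in both lines for 8 members that were higher, where 34.1% of all tested genes were, and 14 that were lower, where 28.9% were.

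None of the 14 tested mitochondrial enzymes passed. EARS2, the mitochondrial glutamyl enzyme, read 374 and 252 in 2D and 276 and 162 in 3D, a difference of -0.54 ± 0.22 (adjusted p 0.149 in limma). AARS2, the alanyl enzyme, read 469 and 402 in 2D and 362 and 297 in 3D, a difference of -0.41 ± 0.18 (adjusted p 0.209 in limma). AARS2 was lower in gel in both lines, where its cytosolic relative AARS1 was higher in both.

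SARS2, the seryl enzyme, was above the floor on plastic alone, at 94.0 and 96.5 against 22.9 and 61.9 in gel. Against the floor it was at least 1.32-fold lower on average, and did not pass; with a lower floor the difference was -1.34 log2 (limma adjusted p 0.110), in a range of adjusted p from 0.110 to 0.475 over the alternatives. MARS2, the methionyl enzyme, and FARS2, the phenylalanyl enzyme, had -0.37 and -0.32 on average, and the other measured FARS2 probe set had 0.11. Higher in both lines were IARS2, the isoleucyl enzyme, by 0.27 and RARS2, the arginyl enzyme, by 0.26. IARS2 read 1059 and 919 in 2D and 1293 and 1094 in 3D, and RARS2, whose other measured probe set had 0.33, read 266 and 303 in 2D and 352 and 330 in 3D. The changes of CARS2, WARS2, LARS2, NARS2, VARS2 and YARS2 lay between -0.17 and 0.21.

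**Figure D3:**
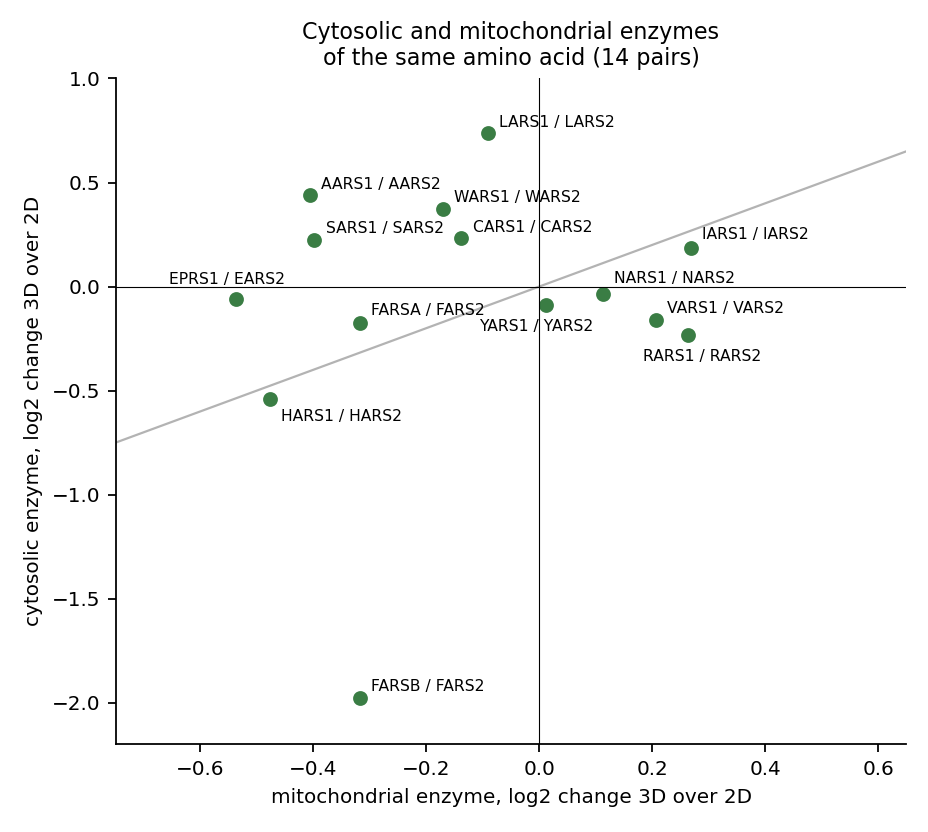
Log2 change of 3D over 2D, averaged over the lines, of each cytosolic enzyme (vertical axis) against the mitochondrial enzyme of the same amino acid (horizontal axis), with the scales unequal and the grey line marking equal change. Of 14 pairs, 7 lie above the line and 7 below; AARS1 with AARS2 and LARS1 with LARS2 lie 0.84 and 0.83 above it, FARSB with FARS2 lies at -1.66, and the SARS1 with SARS2 point is a bound.

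Set against each other by amino acid, cytosolic and mitochondrial enzymes gave 14 pairs, counting both phenylalanyl subunits against FARS2 and EPRS1, which carries the cytosolic glutamyl activity, against EARS2. The cytosolic change was the higher in 7 pairs and the lower in 7, with a median difference of 0.04. Differences were -1.66 for FARSB with FARS2, 0.84 for AARS1 with AARS2 and 0.83 for LARS1 with LARS2. For SARS1 with SARS2 the difference was at least 0.62 and has no rank among these, since SARS2 was under the floor in gel.

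The members were also described by complex and by fold. The 6 measured genes of the multisynthetase complex, EPRS1, IARS1, KARS1, LARS1, RARS1 and AIMP1, had a median of 0.06, with 1 that rose and 5 that did not pass. AIMP1, the scaffold measured, read 928 and 997 in 2D and 789 and 841 in 3D, a difference of -0.24 ± 0.16 that did not pass. The 12 cytosolic enzymes outside the complex had a median of -0.06, with 2 that fell and 10 that did not pass. Of the catalytic folds, class I cytosolic enzymes had a median of 0.19 over 7 genes and class II -0.03 over 9. Among mitochondrial enzymes the medians were -0.09 over 9 class I genes and -0.40 over 5 class II genes, of which 4 were lower in both lines. The -0.40 is the value of SARS2, itself a bound. AARS2 at -0.41 is the next lower, so the median cannot lie below that. Over all tested genes 2.83% rose, 4.15% fell and 28.9% were lower in both lines. The groupings by complex and fold are descriptions with no test.

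Grouped by the ATF4 core shown above, the 6 measured cytosolic enzymes with a match had a median change of 0.20 and the 8 with a window and no match a median of -0.12. Of the 6, AARS1, CARS1, GARS1 and IARS1 had both gel signals above both plastic signals, TARS1 had them below, and NARS1, the asparaginyl enzyme, overlapped at 2418 and 2354 against 2094 and 2591. Of the 8, WARS1 had them above, FARSA, FARSB, HARS1 and RARS1 below, and EPRS1, KARS1 and SARS1 overlapped. Over all tested genes the shares were 27.5% above and 22.7% below. None of the 6 passed, and YARS2, the mitochondrial match, had 0.01. LARS1 (0.74), VARS1 (-0.16) and YARS1 (-0.09) had no window and are in neither group. The core was chosen with earlier results of these data known, and the difference between the groups was not tested.

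Genes of amino acid supply and of the stress response around ATF4 were measured beside the synthetases. ASNS rose 1.39 ± 0.19 log2, from 288 and 375 in 2D to 962 and 773 in gel (limma, Benjamini-Hochberg adjusted p 7.23e-05). Of 19 tested genes of amino acid synthesis and transport, 3 rose, ASNS, the cystathionine lyase gene CTH by 0.98 and the neutral amino acid transporter gene SLC1A4 by 0.74, and SLC7A11, the cystine transporter gene, fell by 0.67, with a list median of 0.10. Of 17 tested stress response regulators, TRIB3 and ATF3 rose by 0.83 and 0.67 and EIF2S1, the eIF2 alpha subunit gene, fell by 0.89. The median of these regulators was 0.18. Over all tested genes 2.83% rose and 4.15% fell. ATF4 itself, at 1304 and 1737 in 2D and 2040 and 1736 in 3D, had 0.32, DDIT3 at 0.76 and EIF2AK4, which encodes GCN2, at -0.17, without passing.

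Other genes act on tRNA before it is charged. Of 29 tested genes of tRNA export and processing, 7 fell and 0 rose, where 4.15% and 2.83% of all tested genes did. Of the 29 genes, 20 were lower in both lines, where 28.9% of all tested genes were, and the median was -0.38. TRMT6, a tRNA methyltransferase subunit gene, read 889 and 928 in 2D and 510 and 512 in 3D and fell by 0.83, both gel values being under both plastic values. ELAC2, which cuts the tRNA 3' end, fell by 0.95, TSEN54 of the splicing endonuclease fell by 0.76, and POP7 of RNase P fell by 0.81. POP1 of RNase P, at the floor in gel, fell by at least 1.20. RTCB, the tRNA ligase gene, fell by 0.59.

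Downstream of charging, 0 of 7 cytosolic elongation factor genes and 0 of 16 mitochondrial translation factor genes passed in limma. Under an unadjusted limma p of 0.05 were 1 and 3 of them, beside 2778 of all 13239 tested genes. Their medians were 0.24 and -0.07. Of 45 mitochondrial ribosomal protein genes, MRPL15 and MRPS7 fell by 0.75 and 0.67, 0 rose, and 26 were lower in both lines. Over all tested genes 4.15% fell, 2.83% rose and 28.9% were lower in both lines. The median of the ribosomal protein genes was -0.17, beside -0.15 for the mitochondrial synthetases.

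**Figure D4:**
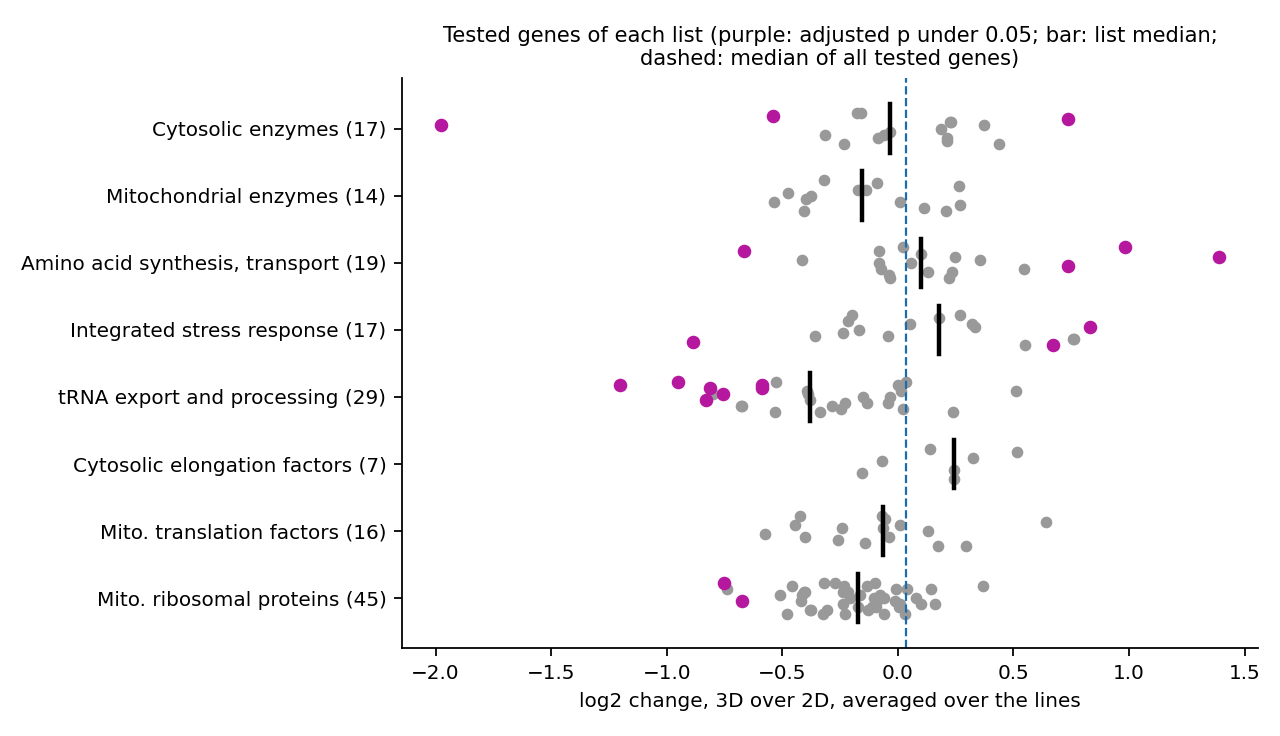
Log2 change of 3D over 2D, averaged over the lines, of each tested gene in 8 lists (number tested in brackets); purple points passed the additive test, black bars are list medians and the dashed line is the median of all tested genes, 0.03. The cytosolic and mitochondrial synthetases centre at -0.03 and -0.15, and tRNA export and processing at -0.38.

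The plasmid comparison set the line labelled ARHGAP8 against the empty vector. No synthetase gene passed: limma called 0 of 32 in either direction, beside 0.128% called over all tested genes. Under an unadjusted limma p of 0.05 was 1 of 32, beside 1078 of all 13239 tested genes. Under each of 10 alternatives limma called 0 members too. With quantile normalization, a lower floor, no filter, the mean of probe sets or every probe set it called 0 of all genes, so those could not differ. Medians were 0.02 for the cytosolic and -0.02 for the mitochondrial enzymes. With signals floored, no member was 2-fold apart in 2D, where 0.461% of tested genes were, or in 3D, where 2.44% were. Both signals of the line labelled ARHGAP8 lay above both of the empty-vector line for 2 members, KARS1 and VARS2, and below for 4, VARS1, EARS2, NARS2 and WARS2, against shares of 12.7% and 14.1% over all tested genes. By sign alone, 7 members were higher in both cultures and 8 lower, where 25.4% and 26.2% of all tested genes were.

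**Figure D5:**
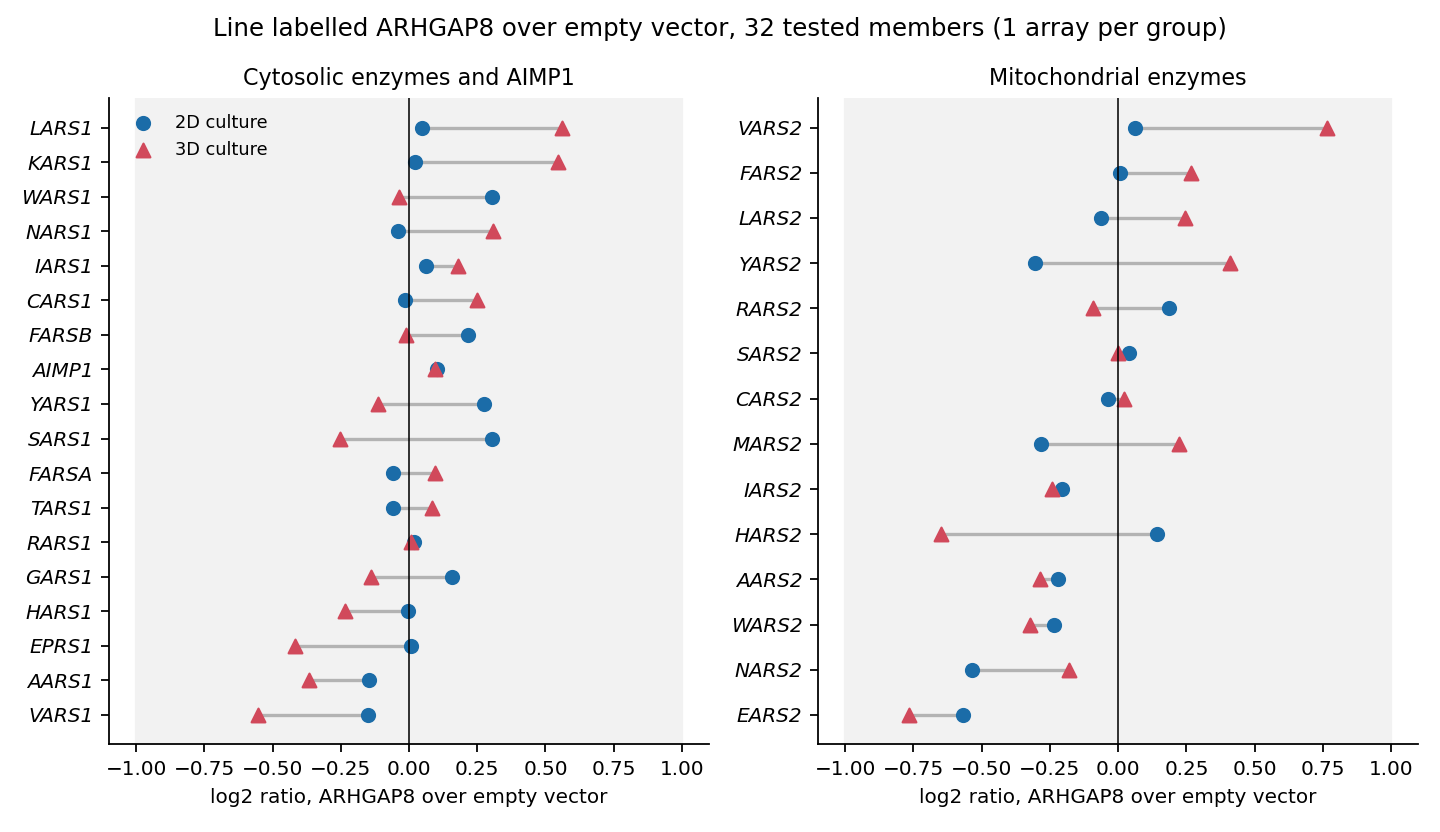
Log2 ratios of floored signal in the line labelled ARHGAP8 over the empty-vector line for the 32 tested members, in 2D (circles) and 3D (triangles), 1 array per group; the grey band spans a 2-fold difference either way. All points lie inside the band, from -0.77 for EARS2 to 0.76 for VARS2, both in 3D.

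EARS2 was the member furthest from 0 between the lines. It was lower in the line labelled ARHGAP8 by -0.57 in 2D and -0.77 in 3D, an average of -0.67 ± 0.22 (limma, unadjusted p 0.00561 and Benjamini-Hochberg adjusted p 0.294, in a range from 0.179 to 0.996 over the alternatives). Averaged over the cultures, 3 other probe sets had differences of -0.74, -0.31 and -0.0027, the first of them reading 37.0 on the ARHGAP8 3D array against 190 to 199 on the others. The lowest and highest EARS2 signals were 162 and 374. With signals floored at 72.3, EARS2, FARSB and LARS1 were the 3 members at least 2-fold apart across some pair of arrays; before flooring, SARS2 was too.

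KARS1 had 0.28 ± 0.18 by its representing probe set and -0.30 by the other; on the ARHGAP8 3D array they read 3134, the highest of that probe set's values, and 1257, the lowest of the other's. NARS2, the mitochondrial asparaginyl enzyme, read 562 in 2D and 536 in 3D with the empty vector, and 387 and 474 in the other line, an average of -0.36 ± 0.18. VARS1, the cytosolic valyl enzyme, had -0.35 ± 0.19 and its mitochondrial counterpart VARS2 0.41 ± 0.20. VARS2 read 343 and 311 with the empty vector and 359 and 528 in the other line, so most of its difference came from the ARHGAP8 3D array. None of these passed. Each plasmid was represented by 1 stable line, so line and ARHGAP8 cannot be told apart.

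The remaining comparison, whether the plasmid ratio depended on culture, has no residual error and gives values alone. The difference of the 3D and 2D ratios ran from -0.79 for HARS2 to 0.72 for YARS2, with a median size of 0.27 over the members and 0.28 over all tested genes. Of the members that passed for culture, FARSB had -0.23 beside changes of -1.86 and -2.09 in the lines, HARS1 had -0.23 beside -0.42 and -0.65, and LARS1 had 0.51 beside 0.48 and 0.99.

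Members with several probe sets show how far a single probe set carries. For 17 members, 24 other probe sets were above the floor on at least 2 arrays. Of these, 14 went the same way as the representing probe set for culture and 10 the opposite way, and 12 of 24 went the same way for plasmid. In 0 of the 10 opposing cases for culture did both values exceed 0.5 log2 in size. Among the members that passed, the opposing culture values were -1.98 and 0.31 for FARSB and 0.74 and -0.28 for LARS1. EARS2, which did not pass, had -0.54 and 0.11, while its other measured probe sets had -0.49 and -0.67.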

How the data were processed

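Per the labels' protocols, total RNA was primed with poly(T), amplified by in vitro transcription in successive rounds and hybridised to 1 array per sample. The authors deposited 1 linear signal intensity per probe set, and the submitters' processing notes name MAS5, without a version. There were 54675 probe sets, 62 of them controls. Signals were scaled to 1 trimmed mean (2% cut from each end), floored at 72.3 and log2-transformed. The platform annotation named 1 gene for 41091 probe sets, several for 1801 and none for 11721; symbols were updated through gene identifiers in RefSeq. Tests used limma 3.58.1 in R 4.3.3 (additive model, 1 residual degree of freedom, eBayes with intensity trend) and were tested on simulated data. Values were printed for members that passed, were 2-fold apart on any pair of arrays, as the rule set, and, chosen after their values were seen, for other members that illustrate a group; pathway genes were named when past the test, at most 6 per list by size, with ATF4, DDIT3, ASNS and EIF2AK4. Members, lists and the promoter core were chosen with earlier results of these data known. Nothing in the labels says whether arrays came from separate cultures. The p-values set a change against departures from the additive model, drawn mostly from other genes, and not against a spread between repeated cultures.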

Additional observations from a re-analysis of the deposited data

Results flagged for a closer look

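For 3 of 32 tested members the ratios went opposite ways in the groups compared and the difference of differences reached 0.7 log2. None of these differences was tested, and the share of all tested genes meeting the same rule was not counted. The difference of differences was under 0.5 in size for 25 of the 32, as it was for 74.5% of all tested genes. HARS2 was at 0.14 between the lines in 2D and -0.65 in 3D, a difference of -0.79. YARS2 was at -0.31 and 0.41, a difference of 0.72. VARS2 was at -0.14 for 3D over 2D with the empty vector and 0.56 with ARHGAP8, a difference of 0.70. Each has a single probe set, and each value uses the ARHGAP8 3D array with the raised 18S signal.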

How the results depend on the processing

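Each group is 1 array, so no spread within a group could be measured. The additive model already compares the cultures within each line and the lines within each culture. For culture, the rising count of 1 became 0 with no filter, with the mean of probe sets and without an intensity trend. The falling count of 2 became 1 after quantile or cyclic loess normalization, with no floor, a lower floor, every probe set fitted alone, no intensity trend or robust eBayes, and 0 with no filter or the mean of probe sets. Without a filter limma called 0 genes of 19775 for culture and plasmid alike, with 749 under an unadjusted p of 0.05 for plasmid. Over all genes the culture counts of 375 and 550 became 264 and 291 after quantile normalization, 285 and 351 with a lower floor, 25 and 12 with the mean of probe sets, and 213 and 212 without an intensity trend. The plasmid counts over all genes, 9 higher and 8 lower, became 0 and 0 with quantile normalization, a lower floor, the mean of probe sets or every probe set, 1 and 0 without an intensity trend, and 28 and 33 when all 4 arrays had to exceed the floor.

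The cytosolic culture median moved to 0.10 in the empty-vector line, and the mitochondrial one to -0.054 with the mean of probe sets. The plasmid medians moved to -0.0115 for the cytosolic enzymes with the mean of probe sets and in 3D alone (-0.0119), and to -0.13 for the mitochondrial ones in 2D alone. No member past the culture test changed sign for culture under these alternatives. With a lower floor, another filter, every probe set, no intensity trend or robust eBayes their log2 values were identical, so no sign could change. Fitting every probe set read only the representing one here, so opposing probe sets of FARSB and LARS1 did not enter there. For culture, EPRS1 changed sign after cyclic loess (0.0046) and with the mean of probe sets (0.0025). With that mean KARS1 went from 0.21 to -0.027 and VARS1 from -0.16 to 0.028. For plasmid, GARS1 (-0.0113), RARS1 (-0.00033) and TARS1 (-0.00074) changed sign after cyclic loess. CARS2 did so after quantile (0.0036), cyclic loess (0.0088) and the mean (0.034). With the mean of probe sets LARS1 went from 0.30 to -0.0301 and KARS1 from 0.28 to -0.0067 for plasmid. CARS1 (-0.073), FARSA (-0.16), WARS1 (-0.075), YARS1 (-0.12) and AIMP1 (-0.022) also changed sign for plasmid with that mean. The cause was not tested. Signal over background limits FARSB's other probe sets, SARS2, PARS2 and WARS2.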
